A study of Mus musculus with 6 samples.

Results

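Fibrinogen is the plasma protein that thrombin turns into the fibrin of a clot. The liver builds each molecule from pairs of an alpha, a beta and a gamma chain, encoded by the separate genes Fga, Fgb and Fgg. The 3 chain genes and 2 related genes, Fgl1 and Fgl2, were followed here in mouse liver 1 h after interleukin-6 (IL-6). Every probe set that the platform table assigns to one of these 5 symbols alone was kept, which gave 6 probe sets of 21789 with a single symbol, 2 of them for Fga. A probe set combines several probes into a single value, and probe sets of the same gene need not stand for different transcripts.

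The treated animals were 10-week-old male C57BL6 mice, an inbred strain, fasted for 16 h and injected intraperitoneally with 100 ng of IL-6 each, with livers taken after 1 h. The comparison animals had the same strain, sex, age and fast, and received saline in place of IL-6. There were 3 arrays of whole liver in each group, so hepatocytes and all other liver cells were measured together at a single early time. All 8 hepatocyte markers examined, among them Alb, Apoa1 and Ttr, stood at or above percentile 99.8 of mean level over all named probe sets. The labels call the arrays separate samples but do not say that they are separate animals. Where single arrays are called livers below, separate animals are not implied. The p-values here reflect sample-to-sample spread, which may be technical.

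Hepatocytes raise fibrinogen output in inflammation, when IL-6 binds its receptor and the shared chain gp130 and activates the transcription factor STAT3. The alpha, beta and gamma chains are joined in the endoplasmic reticulum before secretion. Fgl1 encodes a hepatocyte-secreted protein with a fibrinogen-like domain that is known as a ligand of LAG-3, an inhibitory receptor on T cells. Fgl2 encodes a protein with the same kind of domain that occurs as a membrane-bound prothrombinase on macrophages and endothelial cells and as a form secreted by regulatory T cells.

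The chain genes lie next to each other on mouse chromosome 3 in the order Fgg, Fga, Fgb, with 0 other protein-coding genes between them in the RefSeq table of assembly GRCm38.p6, and Fgb is read from the opposite strand. Promoter sequences from RefSeq on that assembly were found for 4 of the 5 genes and are shown because the chain genes are known targets of IL-6 signalling. Each sequence is the 250 bases before the annotated transcript start, 5′ to 3′ on the strand of the gene. The windows are chr3:83025903-83026152 (plus strand) for Fga, chr3:83049864-83050113 (minus strand) for Fgb, chr3:83007474-83007723 (plus strand) for Fgg and chr5:21372423-21372672 (plus strand) for Fgl2. Capitals mark CTGGGA, the core of the IL-6 response element known from rat fibrinogen genes.
Fga: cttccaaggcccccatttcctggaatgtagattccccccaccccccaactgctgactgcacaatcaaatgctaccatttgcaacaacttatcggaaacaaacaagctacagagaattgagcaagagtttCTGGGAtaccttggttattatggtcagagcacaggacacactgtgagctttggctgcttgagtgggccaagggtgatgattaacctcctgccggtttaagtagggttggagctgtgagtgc
Fgb: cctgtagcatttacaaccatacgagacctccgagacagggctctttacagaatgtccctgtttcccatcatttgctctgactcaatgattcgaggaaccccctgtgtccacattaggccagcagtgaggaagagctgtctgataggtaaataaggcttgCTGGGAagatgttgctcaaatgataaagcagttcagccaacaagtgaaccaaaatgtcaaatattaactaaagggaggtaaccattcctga
Fgg: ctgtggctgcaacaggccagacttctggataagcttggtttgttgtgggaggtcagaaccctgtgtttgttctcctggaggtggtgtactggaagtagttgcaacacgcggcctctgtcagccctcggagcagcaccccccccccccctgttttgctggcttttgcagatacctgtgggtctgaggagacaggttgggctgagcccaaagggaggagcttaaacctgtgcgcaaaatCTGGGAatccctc
Fgl2: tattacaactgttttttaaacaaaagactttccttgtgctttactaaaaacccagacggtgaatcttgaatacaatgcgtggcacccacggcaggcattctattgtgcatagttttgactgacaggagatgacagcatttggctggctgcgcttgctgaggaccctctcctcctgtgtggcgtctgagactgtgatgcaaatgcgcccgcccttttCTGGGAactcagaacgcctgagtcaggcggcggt

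CTGGGA was searched on both strands and occurred once in each of these 4 windows, on the strand of the gene. It lay 116 to 121 bases before the start in Fga, 86 to 91 in Fgb, 8 to 13 in Fgg and 29 to 34 in Fgl2. Of all 32851 promoter windows of the same length in the table, 27.0% held it. The palindrome TTCNNNGAA, the general form of a STAT site, reads the same on both strands and was present in 7.0% of all windows. It occurred as TTCCTGGAA in Fga, TTCGAGGAA in Fgb and TTCTGGGAA in Fgl2, where it overlapped CTGGGA, and had no match in the Fgg window. A general C/EBP element, TTNNGNAA on either strand, was in 36.8% of all windows, with 1 match in Fga, 2 in Fgb, 1 in Fgl2 and none in Fgg. These matches describe letters in a window and not bound sites.

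Transcript levels are given on the log2 scale of RMA, the method with which the submitters normalized the arrays and summarised each probe set. Levels of different probe sets cannot be compared with each other, because probes differ in brightness. Over all named probe sets the second principal component held 23.3% of the variance. On it IL-6 replicate 3 (-14.5) and saline replicate 2 (-11.5) stood away from the other 4 arrays, which lay between 2.37 and 9.73. No batch is named in the labels. The differences are given with and without that pair of arrays.

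Fga rose after IL-6 by both of its probe sets, at 1.97-fold and 2.63-fold. The probe sets of Fgb and Fgg had smaller positive differences, at 1.23-fold and 1.34-fold, which did not pass the test although their groups did not overlap. Fgl1 and Fgl2 had overlapping groups and did not pass. Differences were tested with limma, a linear model that moderates each variance across all probe sets. The call was an adjusted p under 0.05, with Benjamini-Hochberg adjustment over all 21789 named probe sets. By this rule 2 of the 6 probe sets, both of Fga, rose and 4 were not called, where 0.353% of all named probe sets were called higher. In 4 of the 6 all 3 IL-6 values lay above all 3 saline values, as they did in 6.16% of all named probe sets. At an unadjusted limma p under 0.05, 5 of the 6 were higher, against 3.76% of all, and 6.58% of all were higher or lower.

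**Figure D1:**
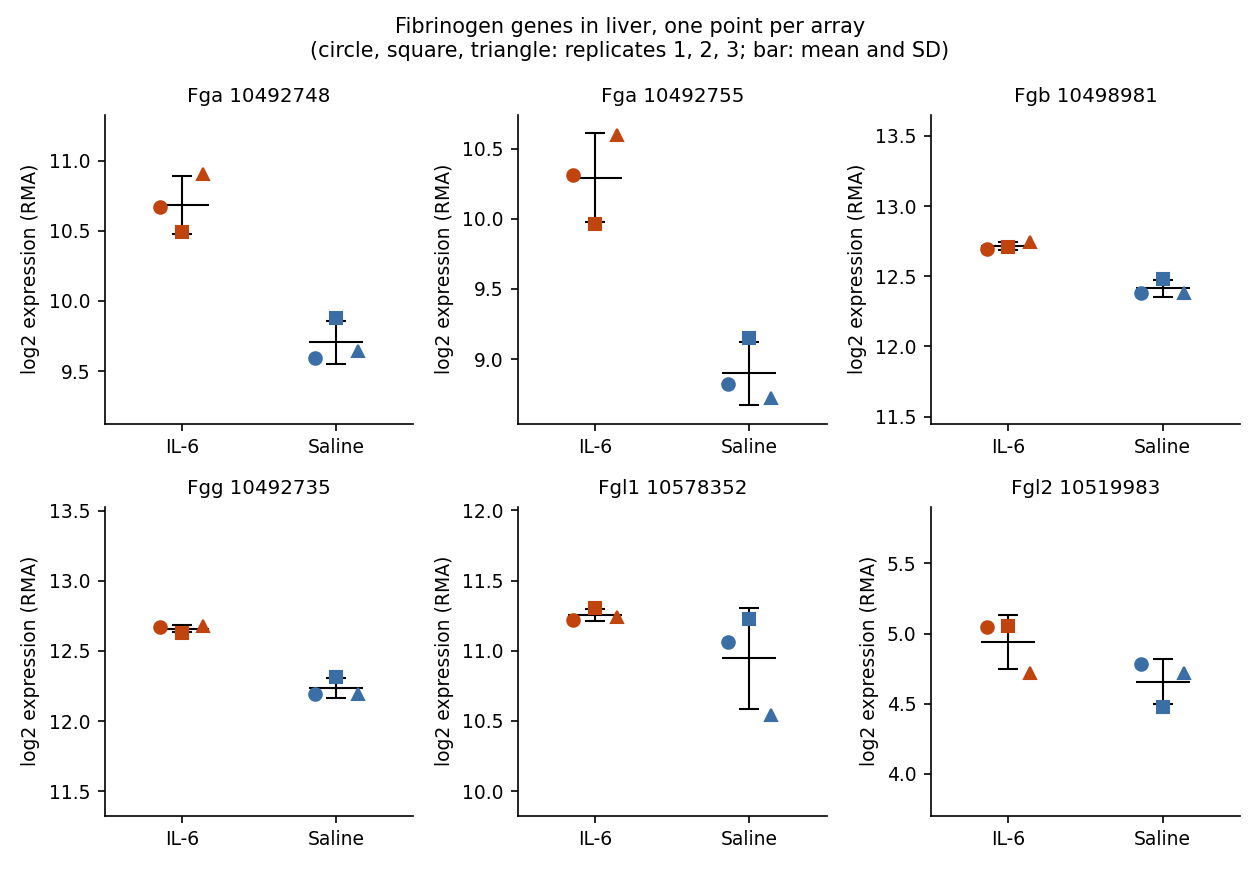
Log2 expression (RMA, vertical axis) of each probe set in the 3 IL-6 arrays (orange, left) and the 3 saline arrays (blue, right), with the replicate number given by the symbol and the mean and SD as bars. Every panel spans the same height on the log2 scale. The groups are separate in both Fga probe sets, Fgb and Fgg, and overlap in Fgl1 and Fgl2.

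Fga encodes the alpha chain, whose N-terminal peptide thrombin removes first when fibrin forms. Probe set 10492748 read 10.67, 10.49 and 10.90 in the IL-6 livers and 9.59, 9.88 and 9.64 in the saline livers on the log2 scale. The lowest IL-6 value exceeded the highest saline value by 0.61. The mean level was 10.69 ± 0.21 after IL-6 and 9.71 ± 0.15 after saline (SD, n = 3 each). The log2 difference was 0.98 ± 0.12 (standard error, limma adjusted p = 0.00791), a 1.97-fold rise with a 95% interval of 1.64 to 2.37.

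The other Fga probe set, 10492755, moved further. It read 10.31, 9.96 and 10.60 in the IL-6 livers and 8.82, 9.15 and 8.72 in the saline livers, with a gap of 0.81 between the groups. The means were 10.29 ± 0.32 after IL-6 and 8.90 ± 0.23 after saline (SD, n = 3 each). The log2 difference was 1.39 ± 0.16 (standard error, limma adjusted p = 0.00657), or 2.63-fold with a 95% interval of 2.04 to 3.39. Its difference ranked 22 among all 21789, and that of 10492748 ranked 41.

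The platform table assigns the same 2 RefSeq transcripts of Fga to both probe sets. Which exons each probe set covers is not given in the sources used here. Within each array, 10492748 minus 10492755 was 0.35, 0.53 and 0.30 in the IL-6 livers and 0.77, 0.73 and 0.92 in the saline livers. This difference fell by 0.41 after IL-6, so the probe sets of one gene changed by unequal amounts, and no IL-6 liver overlapped a saline liver (two-sided exact permutation p = 0.1, adjusted p = 0.15 over 15 pairs of probe sets). With 3 arrays against 3, an exact permutation p cannot be under 0.1.

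Fgg encodes the gamma chain, which carries the main site for platelet integrin binding and for cross-linking by factor XIII. Its probe set 10492735 read 12.67, 12.63 and 12.68 in the IL-6 livers and 12.20, 12.31 and 12.20 in the saline livers. The 3 IL-6 values lay within a narrow band, and the lowest stood 0.32 above the highest saline value. The means were 12.66 ± 0.03 after IL-6 and 12.24 ± 0.07 after saline (SD, n = 3 each). The log2 difference of 0.42 ± 0.07 (standard error, 1.34-fold, 95% interval 1.20 to 1.50) missed the threshold narrowly (limma adjusted p = 0.0551). Fgg passed in 5 of 18 alternatives, those that dropped dim probe sets, let the variance prior follow the level or weighted the arrays, with an adjusted limma p between 0.00315 and 0.277 over all 18.

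Fgb encodes the beta chain, whose synthesis is regarded as limiting for assembly in cultured human hepatoma cells. Probe set 10498981 read 12.69, 12.71 and 12.75 in the IL-6 livers and 12.38, 12.48 and 12.38 in the saline livers. All 3 IL-6 livers were above all 3 saline livers, by at least 0.21. The means were 12.72 ± 0.03 after IL-6 and 12.42 ± 0.06 after saline (SD, n = 3 each). The log2 difference was 0.30 ± 0.07 (standard error, 1.23-fold, 95% interval 1.10 to 1.38) and was not called (limma adjusted p = 0.256). Fgb passed in 1 of 18 alternatives, the variance prior with a trend and robust fitting (limma adjusted p = 0.0277).

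**Figure D2:**
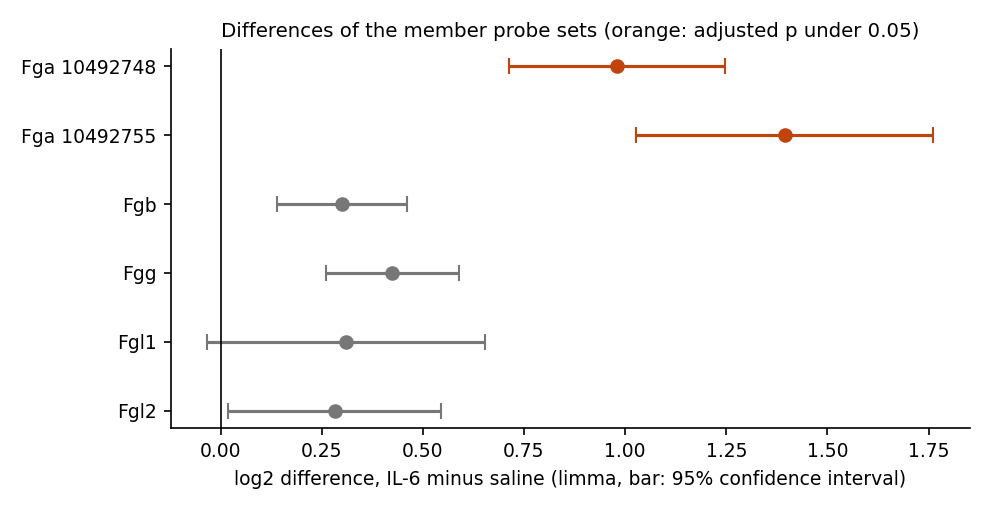
Log2 difference of each probe set, IL-6 minus saline (horizontal axis), with the 95% confidence interval from limma, and orange for an adjusted p under 0.05. The intervals of both Fga probe sets lie above those of Fgb and Fgg, from 0.71 to 1.25 and from 1.03 to 1.76, against 0.14 to 0.46 for Fgb and 0.26 to 0.59 for Fgg.

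The probe sets of Fgb and Fgg were among the brightest on the arrays, at percentiles 99.9 and 99.8 of mean level, and those of Fga stood at 97.4 (10492748) and 95.6 (10492755). Of 73 named probe sets with a mean of 12 or more, a bound chosen after the values were seen, none was called by limma and 6 had an unadjusted limma p under 0.05. Differences in these 73 ran from -0.25 to 0.42. Fgg had the largest and Fgb the second largest positive difference among them, followed by the glycolytic enzyme gene Ldha (0.25) and the haptoglobin gene Hp (0.23). RMA and scanner saturation can both compress changes of bright probe sets, and without scanner intensities their part in the smaller values of Fgb and Fgg was not tested.

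**Figure D3:**
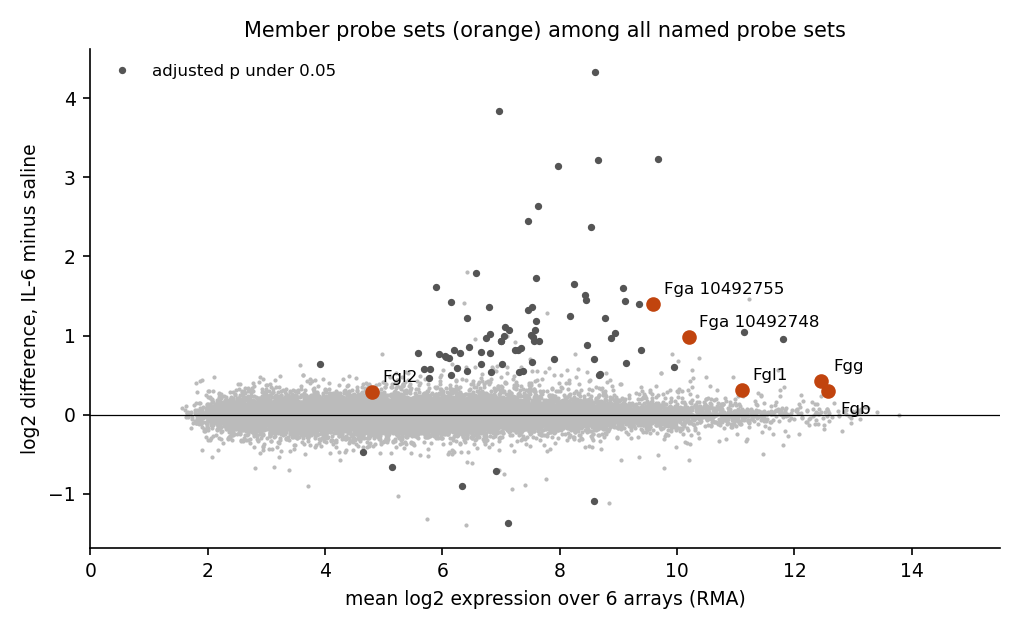
Mean log2 expression over the 6 arrays (horizontal axis) and log2 difference, IL-6 minus saline (vertical axis), for all 21789 named probe sets (grey), those with an adjusted p under 0.05 (dark) and the 6 fibrinogen and fibrinogen-like probe sets (orange). Fgg and Fgb lie at the bright end above the surrounding points, at 0.42 and 0.30, and no probe set with a mean of 12 or more is called.

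Changes of the chains were set against each other within the same livers. With 3 arrays against 3 an exact permutation p cannot be under 0.1, so no pair could pass and the values are given instead. On each array the log2 value of Fga 10492748 minus that of Fgb was -2.02, -2.22 and -1.84 in the IL-6 livers and -2.79, -2.60 and -2.73 in the saline livers. The mean of this difference was 0.68 higher after IL-6, and every IL-6 liver lay above every saline liver (two-sided exact permutation p = 0.1, adjusted p = 0.15). Against Fgg, the same Fga probe set gained 0.56, with values of -2.00, -2.14 and -1.78 in the IL-6 livers and -2.60, -2.43 and -2.55 in the saline livers (exact permutation p = 0.1, adjusted p = 0.15). For Fga 10492755 the gains were 1.09 against Fgb and 0.97 against Fgg (exact permutation p = 0.1 and adjusted p = 0.15 for each).

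Fgb and Fgg had the smallest shift against each other among the chain probe sets. Fgb minus Fgg was 0.02, 0.08 and 0.06 in the IL-6 livers and 0.19, 0.17 and 0.18 in the saline livers. The difference fell by 0.12 after IL-6, a shift larger than the spread within either group, at SD 0.029 in the IL-6 livers and 0.0098 in the saline livers (exact permutation p = 0.1, adjusted p = 0.15). Over the alternatives it ran from -0.14 to -0.11.

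Within a group the 4 chain probe sets ordered the livers alike at the top. IL-6 replicate 3 was the highest of the IL-6 livers and saline replicate 2 the highest of the saline livers in 4 of 4 chain probe sets. That pattern held in 13.3% of all named probe sets and in 27.4% of the 73 with a mean of 12 or more. It was not particular to the chains. Among the genes listed below for folding of secreted multi-chain proteins, all but Canx had it by their brightest probe sets. Hspa5 read 11.24 in IL-6 replicate 3 against 10.93 and 10.94, and 11.29 in saline replicate 2 against 10.87 and 10.88. IL-6 replicate 3 and saline replicate 2 are the 2 arrays that stood away on the second component. They also had the highest summed level of the 8 hepatocyte markers in their groups. That sum, of linear values in the arrays' own units, was 65471 in IL-6 replicate 3 against 63149 and 64119 in the other IL-6 livers. It was 65351 in saline replicate 2 against 61999 and 63761 in the other saline livers. Single markers did not all follow the sum. Only Cyp2e1 and Serpina1c were the highest of their group in both arrays, and Alb was the lowest in both (log2 13.40 and 13.36). The part of these array differences in the shared order was not tested.

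The deviations were much wider for Fga than for its partners, whose probe sets were brighter. The part of brightness in this contrast was not tested. In Fga 10492755 the IL-6 livers deviated from their mean by 0.02, -0.33 and 0.31 on the log2 scale, while in Fgg they deviated by 0.009, -0.03 and 0.02. In Fgb they deviated by -0.02, -0.006 and 0.03, and here IL-6 replicate 1, not replicate 2, was the lowest. Differences were also taken without IL-6 replicate 3 and saline replicate 2, the arrays that stood away on the second component. The log2 differences were then 0.96 and 1.37 for the Fga probe sets 10492748 and 10492755, which were still called (limma adjusted p = 0.0266 and 0.0170). They were 0.32 for Fgb and 0.45 for Fgg, which were not called (limma adjusted p = 0.568 and 0.277).

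**Figure D4:**
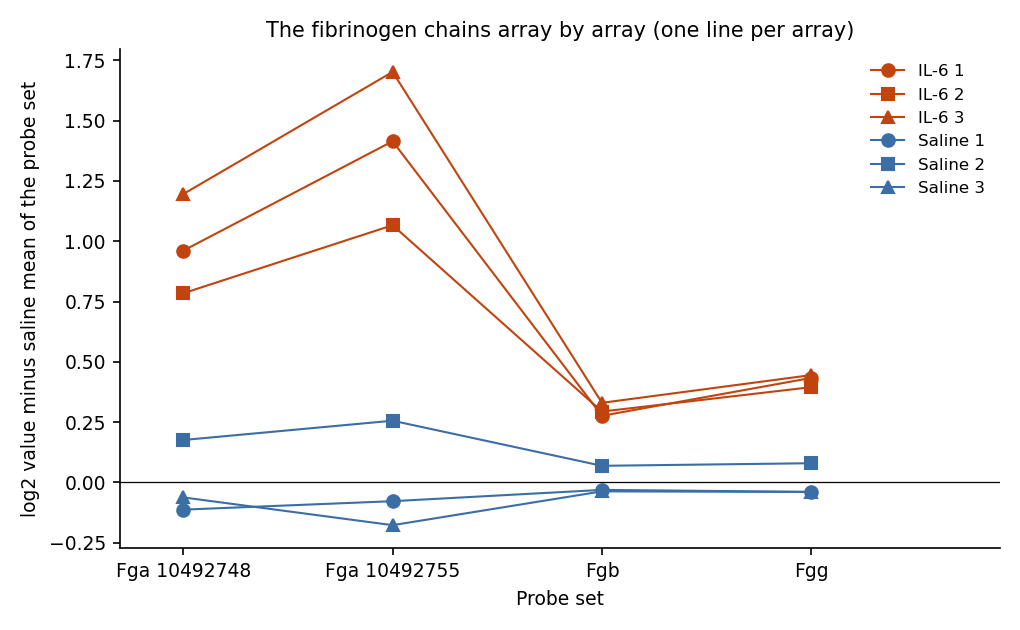
Log2 value of each chain probe set minus its own saline mean (vertical axis), with one line for each IL-6 array (orange) and each saline array (blue). The IL-6 lines lie between 0.78 and 1.70 at the Fga probe sets and between 0.28 and 0.44 at Fgb and Fgg, and the saline lines lie between -0.18 and 0.26.

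Likeness was also measured as the root mean square difference, over the 6 arrays, between the deviations of 2 probe sets from their own saline means. From Fgg, the Fgb probe set was number 26 of all others (0.090 on the log2 scale), and from Fgb, Fgg was number 141. From Fga 10492748, Fgg was number 107 (0.41) and Fgb number 271 (0.50). In the other direction Fga 10492748 was number 19251 from Fgg and 21603 from Fgb. The other Fga probe set was number 51 from 10492748, which was number 18 from 10492755 (0.31). The 2 nearest genes to Fga 10492748 were Serpina3n, an acute-phase protease inhibitor (0.073), and Tifa, an adaptor of NF-kappaB signalling (0.077). Nearest to Fga 10492755 were the acute-phase gene Saa4 (0.093), the lubricin gene Prg4 (0.17) and Phlda1 (0.20).

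Nearest to Fgg were Gpr146 (0.037), Mustn1 (0.043) and 3110082I17Rik (0.050), and nearest to Fgb were Gm13749 (0.031), Cacna2d4 (0.032) and Extl3 (0.035). Small differences such as that of Fgb have many near neighbours, so these names carry less than those for Fga. Macrod2, Omt2b and Vmn1r176 were nearest to Fgl1 (0.090 to 0.11), and Hcar2, Olfr1388 and Hsd3b6 to Fgl2 (0.039 to 0.051).

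Fgl1 read 11.22, 11.31 and 11.24 in the IL-6 livers and 11.07, 11.23 and 10.54 in the saline livers (probe set 10578352). The IL-6 livers were tightly grouped, while saline replicate 3 was low and saline replicate 2 lay inside the IL-6 range. The means were 11.26 ± 0.04 after IL-6 and 10.95 ± 0.36 after saline (SD, n = 3 each), a log2 difference of 0.31 ± 0.15 (standard error, 1.24-fold, 95% interval 0.98 to 1.57) that did not pass (limma adjusted p = 0.808). That value rested on saline replicate 3: without it the difference was 0.11. Without the pair of arrays that stood away, which keeps that liver, the difference was 0.46 (limma adjusted p = 0.740). Fgb minus Fgl1 did not separate the groups, with means of 1.46 after IL-6 and 1.47 after saline.

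Fgl2 was dim, at percentile 29.1 of mean level. It read 5.05, 5.05 and 4.72 in the IL-6 livers and 4.78, 4.47 and 4.72 in the saline livers (probe set 10519983). IL-6 replicate 3 lay among the saline values, and the groups overlapped. The means were 4.94 ± 0.19 after IL-6 and 4.66 ± 0.16 after saline (SD, n = 3 each), a log2 difference of 0.28 ± 0.12 (standard error, 1.22-fold, 95% interval 1.01 to 1.46) that did not pass (limma adjusted p = 0.705). Leaving out 1 array gave 0.39 where IL-6 replicate 3 was dropped and 0.19 where saline replicate 2 was. Without the pair of arrays that stood away it was 0.30 (limma adjusted p = 0.633). In whole liver, a change in the number of cells of a type and a change in RNA per cell cannot be told apart.

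Markers of cells that can hold Fgl2 were read beside it. Of 8 Kupffer cell and macrophage markers none was called by limma (1 at an unadjusted p under 0.05, Timd4), and their summed linear level ran from 712 to 865 in the IL-6 livers and from 679 to 761 in the saline livers. Of 7 endothelial markers none was called (0 unadjusted), with sums from 1434 to 1682 after IL-6 and from 1504 to 1609 after saline. Of 8 T and NK cell markers none was called (1 unadjusted, Foxp3, lower) and 5 lay below the 25th percentile of level, with sums from 209 to 240 after IL-6 and from 236 to 244 after saline. Of 7 neutrophil markers S100a8 was called higher and 6 were not called (2 unadjusted, S100a8 and, lower, Ly6g). Of the 7, 3 had positive differences and 4, S100a8 among them, lay below the 25th percentile. The sums were 144 to 177 after IL-6 and 157 to 166 after saline. IL-6 replicate 3, the lowest IL-6 liver for Fgl2, was also the lowest for the macrophage (712, against 719 and 865), T and NK cell and neutrophil sums. Single markers did not all follow these sums. Among the IL-6 livers, Csf1r, Marco, Cd3e and Mpo, for example, were lowest in replicate 3, but Vsig4, Cd68, Foxp3 and Ly6g were lowest in replicate 1. For the endothelial sum the lowest was IL-6 replicate 2 (1434, against 1621 in IL-6 replicate 3). Saline replicate 2, the lowest saline liver for Fgl2, was also the lowest for the T and NK cell (236) and neutrophil (157) sums. It was not the lowest for the macrophage sum (751, against 679 in saline replicate 3), and it was the highest for the endothelial sum (1609). The part of these cells in the values of Fgl2 was not tested. The known receptors of these proteins, Lag3 for Fgl1 and Fcgr2b and Fcgr3 for Fgl2, were 0 of 3 called by limma (0 unadjusted), with Fcgr3 at 0.16 ± 0.09 and Fcgr2b at 0.13 ± 0.11 (standard error, limma adjusted p = 0.868 and 0.918).

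Transcripts of proteins that work on fibrinogen and fibrin were read as a list. With 0.353% of all named probe sets called higher, a count of 0 in lists of this size says little. Of 15 listed genes of fibrin formation and lysis 13 were measured and 0 passed in limma (0 at an unadjusted p under 0.05), with a median log2 difference of 0.05 beside 0.004 over all named probe sets. The thrombin precursor gene F2 differed by 0.05 ± 0.07 and the plasminogen gene Plg by 0.06 ± 0.08 (standard error, limma adjusted p = 0.960 and 0.961). F13a1, the catalytic subunit of the cross-linking enzyme factor XIII, had the smallest p of the list at 0.18 ± 0.10 (limma adjusted p = 0.862), followed by the platelet integrin gene Itgb3 at -0.12 ± 0.08 (limma adjusted p = 0.883). Megakaryocyte and platelet markers, 4 measured of 7, had 0 called by limma (1 unadjusted, Gp9, lower), and their sums were 189 to 203 in the IL-6 livers and 188 to 203 in the saline livers.

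The wider family of genes with a fibrinogen-like domain held no called gene either. Of 17 listed relatives, among them angiopoietins, ficolins and tenascins, 15 were measured and 0 passed in limma (0 at an unadjusted p under 0.05), with differences from -0.18 to 0.20 and a median of 0.02. Angptl4, a lipoprotein lipase inhibitor, had -0.18 ± 0.10, and the tenascin gene Tnn 0.20 ± 0.12 (standard error, limma adjusted p = 0.865 and 0.874). Of the 8 genes listed for folding of secreted multi-chain proteins 0 passed in limma (0 unadjusted), with differences from -0.05 to 0.06. The chaperone gene Hspa5 stood at 0.03 ± 0.13 (standard error, limma adjusted p = 0.986), and the smallest p values belonged to P4hb (-0.05 ± 0.07) and Canx (0.03 ± 0.08). One further probe set of Pdia4 had a difference of -0.31, against 0.04 in the brighter one.

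Of the IL-6 signal chain and the factors known at fibrinogen promoters, 9 of 10 genes were measured, 1 rose and the median difference was 0.19 (4 at an unadjusted limma p under 0.05). The riser was Socs3, the feedback inhibitor of JAK-STAT signalling, at 3.15 ± 0.11 (standard error, limma adjusted p = 1.79e-06), and its other probe set 10383010 rose by 1.79 ± 0.21 (limma adjusted p = 0.00714). Stat3 had 0.52 ± 0.09 (standard error, limma adjusted p = 0.0535, between 0.0118 and 0.411 over the alternatives), and Il6st, which encodes gp130, had 0.29 ± 0.08 (limma adjusted p = 0.371). Cebpb, which encodes a C/EBP factor active in the acute phase, had 0.38 ± 0.12 (limma adjusted p = 0.543). Cebpd had 0.19 ± 0.12 (limma adjusted p = 0.888). Differences were positive in 7 of the 9 measured genes. The IL-6 receptor gene Il6ra had -0.20 ± 0.10 and Cebpa -0.04 ± 0.07 (standard error, limma adjusted p = 0.805 and 0.964). Of the 6 protein-coding genes nearest to the chains along the chromosome 5 were measured and none passed in limma (1 at an unadjusted p under 0.05). Plrg1, next to Fgb, had 0.20 ± 0.07, and Lrat, next to Fgg, had 0.19 ± 0.10 (standard error, limma adjusted p = 0.647 and 0.841).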

How the data were processed

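Whole-liver RNA was hybridised to 6 one-colour Affymetrix arrays, 3 per group. The deposited log2 values per probe set were made by the authors with RMA, per the submitters' processing notes. The version and settings, like the build of the array design, were not given in the sources used here. RMA's quantile step can hide a shift common to most genes, and its summary can compress large changes. With 3 arrays a group, precision is limited, and standard errors of log2 differences had a median of 0.089.

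Of 35556 probe sets, the platform table gave 1 symbol to 21789 (19938 genes), several to 1621, and did not list 12146. All 21789 were fitted with limma 3.58.1 in R 4.3.3 (lmFit and eBayes, two-sided, Benjamini-Hochberg over all 21789, threshold 0.05), without a filter or covariate. The script was tested on simulated data. Differences between 2 probe sets within an array were compared by two-sided exact permutation over arrays, adjusted over 15 pairs. Lists are described by counts and medians, with the brightest probe set of a gene. Named list genes are those called and otherwise the 2 with the smallest p. Stat3, Il6st, Il6ra, Cebpa, Cebpb, Cebpd, Ly6g, F2, Plg, Hspa5, Timd4, Foxp3 and Gp9 are named after their values were seen. So are the other probe sets of Pdia4 and Socs3 and, among bright probe sets, Ldha and Hp. The same holds for the folding list and for Alb, Cyp2e1 and Serpina1c where the order of the livers is described. It also holds for Vsig4, Cd68, Csf1r, Marco, Cd3e and Mpo, named beside the marker sums. List genes that had no single-symbol probe set are not analysed here. The third gene nearest to Fga 10492748 is not reported here. The 5 genes, the lists and the tests were chosen with earlier results of these data known. Alternatives covered normalization, filters, the probe sets tested, the variance prior, weights for arrays, replicate as a block and leaving out arrays. Leaving out 2 arrays together was added after seeing the data. Figures used matplotlib 3.10.9 in Python 3.11.15.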

Additional observations from a re-analysis of the deposited data

How the results depend on the processing

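Over 18 alternatives each for Fga 10492748, Fgb, Fgg and Fgl1 and 17 for Fga 10492755 and Fgl2, no difference changed sign. Both Fga calls were lost only when all 35556 probe sets were tested (differences unchanged at 0.98 and 1.39, limma adjusted p = 0.116 each), where 16 probe sets were higher and 1 lower in place of 77 and 6. Fgg (0.42) passed with the 2 filters on dim probe sets, with a trend and with a trend and robust fitting, and with array weights (0.43), and Fgb (0.30) with a trend and robust fitting. Leaving out 1 array gave 0.87 to 1.08 and 1.24 to 1.56 for the Fga probe sets, all called, 0.28 to 0.33 for Fgb, 0.40 to 0.46 for Fgg, 0.11 to 0.45 for Fgl1 and 0.19 to 0.39 for Fgl2. It gave 43 (without saline replicate 3) to 69 higher and 3 (without IL-6 replicate 1) to 5 lower probe sets. Without both arrays that stood away on the second component there were 33 higher and 2 lower. The list of IL-6 signal and promoter factors had 2 called genes, Stat3 joining Socs3, with 1 probe set per gene, median centring, either filter, a trend with or without robust fitting, and array weights, and 1 to 2 on leaving out 1 array.

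Of the changes within arrays, those between Fga, Fgb and Fgg kept their direction. Fgb minus Fgl1 (-0.01) reversed to 0.0014 when quantile normalization was repeated and ran from -0.12 to 0.17 without 1 array. Fgb minus Fgl2 (0.02) reversed to -0.0072 with cyclic loess and -0.029 with repeated quantile normalization, and ran from -0.11 to 0.14 without 1 array. Fgl1 minus Fgl2 (0.03) reversed to -0.031 with repeated quantile normalization and ran from -0.20 to 0.26 without 1 array, and Fgg minus Fgl1 (0.11) reversed to -0.0059 without both of those arrays. For these the cause was not tested. With the replicate number as a block, both Fga probe sets stayed called (0.98 and 1.39, limma adjusted p = 0.0413 each), Fgb and Fgg did not (limma adjusted p = 0.501 and 0.202), and 52 probe sets were higher and 5 lower. Deviations of same-numbered arrays from their group means correlated at 0.07, -0.12 and -0.09 over probe sets. Such deviations cancel out within a group, so these values cannot exclude pairing. The main fit did not treat the numbers as pairs. Brightness over background could not be assessed without scanner intensities.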
